A study of Mus musculus with 6 samples.

Results

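The genes of the matrix metalloproteinases (MMPs), of the ADAMTS proteases and of their inhibitors, the TIMPs, were followed in endothelial cells with changed levels of Dot1l, the histone methyltransferase that methylates a lysine in the core of histone H3. Members were taken by symbol (Mmp, Adamts or Timp followed by a number), which gave 46 of the 24421 genes in the count table, with 23 Mmp, 19 Adamts and 4 Timp genes. The rule used symbols and no measured value, but it was set with earlier results of these data known. ADAMTS-like genes, which encode no protease, were not included.

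RNA-seq read counts of 6 mouse libraries were used, with 1 library per condition. Blood endothelial cells (BECs) came from E15.5 embryonic skin of Tie2-Cre(+); Dot1l 2f/2f embryos (cKO) and of Tie2-Cre(-); Dot1l 2f/2f embryos (Cont), which carry the floxed alleles but no Cre, and RNA of 2 to 3 embryos was pooled per library. Tie2-Cre is active in endothelial cells and also in part of the blood lineage, and the skin cells were selected as negative for F4/80, CD45 and Lyve1 and positive for CD31. Cultured cells were the mouse embryonic yolk sac BEC line CRL-2581 and the mouse embryonic dermal lymphatic endothelial cells (LECs) C57-6064L, each a single line pooled from 2 to 3 flasks. They were transduced with a lentivirus carrying guide RNAs to the Dot1l promoter and inactive Cas9 fused to the activator VP64 (OE-BECs and OE-LECs) or with empty lentivirus (Cont), and fluorescent cells were sorted.

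MMPs are zinc endopeptidases that are made as inactive precursors and together cut most proteins of the extracellular matrix. ADAMTS proteases are secreted relatives that carry thrombospondin repeats and cut proteoglycans such as versican and aggrecan, procollagens, von Willebrand factor and other matrix proteins. TIMPs bind the active site of enzymes in these families. In endothelium the balance of proteases and inhibitors is known to govern the basement membrane, sprouting and vessel remodelling.

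The Dot1l gene itself was counted first. Skin Cont BECs gave 762 Dot1l reads and the library labelled cKO gave 944 (log2 ratio -0.07, 95% interval -0.21 to 0.07). The whole-gene count thus showed no loss of Dot1l RNA in that library. Reads were not counted per exon, and how complete the deletion was in the sorted cells was not tested. The paper reports RT-qPCR checks of the knockout and of the overexpression. Dot1l reads went from 1972 to 4208 in cultured BECs (log2 ratio 1.48, 1.40 to 1.55) and from 2490 to 6720 in LECs (1.20, 1.13 to 1.27). Libraries held 8863349 to 31032461 reads, and Rn45s, an rRNA precursor, took 5.91% of the reads in cultured Cont BECs and 10.9% in OE-BECs but at most 0.570% elsewhere. Prox1, the defining transcription factor of LECs, had 0 reads in all 4 cultured libraries, the LEC libraries included. In the skin BEC libraries Prox1 had 1304 reads in Cont and 883 in cKO. Lyve1, against which these cells were selected, had 9105 and 19959 reads there. In the skin libraries the summed level of 10 macrophage markers was 3662 counts per 1000000 reads (CPM) in Cont and 5869 CPM in cKO. That of 8 fibroblast markers was 2858 and 2097 CPM, and that of 10 blood endothelial markers 6400 and 3899 CPM. The blood endothelial list summed to 6514 CPM in cultured Cont LECs, so it does not set BECs apart from LECs. The 6 lymphatic markers, Prox1 among them, summed to 2105 CPM in cultured Cont LECs and 2093 CPM in OE-LECs. In the BEC line they summed to 748 CPM (Cont) and 1160 CPM (OE). Besides Prox1, the lymphatic markers Pdpn and Ccl21a had 0 reads in both LEC libraries. In bulk RNA, fewer cells of a type and less RNA per cell cannot be told apart.

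Each comparison sets 1 library against 1 other, so there was no replicate check, and no p-value is given. A member was said to rise or fall when its normalized count in the higher library exceeded 3 times that in the lower one and reached 5 (cKO) or 3 (OE), among genes that had 10 reads or more in the pair together. The 95% intervals come from the reads alone and cover counting error only, not the spread between embryos, cultures or library preparations. The reads carry no molecular identifiers and copies made by PCR are counted too, so the intervals may be too narrow even for counting error. A count of 3 reads or fewer was taken as the floor of a library.

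The genes Mmp13, Mmp12, Mmp1b, Mmp3, Mmp1a, Mmp10, Mmp8, Mmp27, Mmp20 and Mmp7, 10 members in all, lie in 1 cluster on chromosome 9 (GRCm38, 7272514 to 7699585, 427.1 kb), and 4 of these were the members that rose in 1 of the comparisons or more. RefSeq promoter windows (250 bases before to 50 after the start, build GRCm38.p6) were matched for 32 of the 46 members. The unmatched ones were Mmp2, Mmp9, Mmp16, Mmp17, Mmp19, Adamts4, Adamts5, Adamts6, Adamts7, Adamts8, Adamts10, Adamts15, Adamts16 and Adamts19. The windows were searched for TGANTCA, the core letters of an AP-1 site, which reads the same on both strands. It was in a window of 8 of the 10 cluster members (80%) and of 0 of the 22 other matched members, against 8.97% of all 27025 genes with a window. These cluster genes are related copies, so the matches are not independent. The stretch of 120 bases before the start is printed for the 4 cluster members that rose, 5′ to 3′ on the plus strand of chromosome 9, with TGANTCA in capitals.

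Mmp3 (chr9:7445702-7445821): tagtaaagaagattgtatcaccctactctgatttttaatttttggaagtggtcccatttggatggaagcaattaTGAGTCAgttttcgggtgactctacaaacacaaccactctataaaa
Mmp10 (chr9:7502222-7502341): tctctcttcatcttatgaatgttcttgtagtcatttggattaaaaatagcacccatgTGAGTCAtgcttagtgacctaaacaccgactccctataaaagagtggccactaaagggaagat
Mmp13 (chr9:7272394-7272513): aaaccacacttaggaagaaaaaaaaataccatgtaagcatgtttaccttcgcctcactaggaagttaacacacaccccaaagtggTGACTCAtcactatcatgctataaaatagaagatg
Mmp27 (chr9:7571276-7571395): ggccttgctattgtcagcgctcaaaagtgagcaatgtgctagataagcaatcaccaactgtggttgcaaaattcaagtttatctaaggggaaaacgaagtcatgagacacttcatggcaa

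The first base of the match lay 46 bases before the start of Mmp3, 63 before that of Mmp10 and 35 before that of Mmp13, and the Mmp27 window held none. Among cluster members that did not rise, a window of Mmp1a, Mmp1b, Mmp7, Mmp12 and Mmp20 also held a match, and that of Mmp8 held none. AGGAAG, the core letters of a PEA3/ETS site, was searched on both strands and can share at most 1 end letter with TGANTCA. It was in 7 of the 10 cluster members and 8 of the 22 others, against 38.4% of all genes with a window. These matches describe letters only, and binding at them was not measured here.

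Levels were compared between members per length, as reads per kilobase of exon per 1000000 reads of the library (RPKM). Adamts1, a secreted protease of versican and aggrecan on chromosome 16, had the highest RPKM of the 46 in 5 of the 6 libraries, with 74.9 (Cont) and 34.1 (cKO) in skin, 490 (Cont) and 205 (OE) in the BEC line, and 294 (Cont) and 196 (OE) in the LEC line. The exception was the skin cKO library, where Timp3, the inhibitor that binds to matrix, had 39.6 RPKM. Adamts1 made up 77.6% to 79.6% of the summed ADAMTS RPKM in the 4 cultured libraries, 54.2% in skin Cont BECs and 39.8% in skin cKO BECs.

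Of the 46 members, 19 were over the floor in all 6 libraries, 9 in both skin libraries and in no cultured one, 4 in cultured libraries only, 3 in none, and 11 in some other combination. The 9 members of the skin libraries were Mmp16, Mmp25, Adamts2, Adamts3, Adamts8, Adamts16, Adamts18, Adamts19 and Adamts20, with 19 to 304 reads in each skin library. Among them, Adamts2 and Adamts3 remove the N-propeptide of fibrillar procollagens. Adamts14, another such protease, had 65 and 71 reads in skin, 0 in both BEC line libraries, and 12 and 23 in the LEC line. The skin libraries also held fibroblast markers at 2858 and 2097 CPM against 2.83 to 20.5 CPM in culture. Keratinocyte markers stood at 262 and 414 CPM in skin against 4.66 to 8.89 CPM in culture. The part of these cell types in the skin signal of the 9 members was not tested.

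The 4 members over the floor in culture only were Mmp1a, Mmp1b, Mmp3 and Mmp10, all of the chromosome 9 cluster. Mmp3, stromelysin 1, which cuts proteoglycans, fibronectin and laminin and activates other MMP precursors, had 0 reads in both skin libraries, which allows up to 0.338 CPM in Cont and 0.271 CPM in cKO. Its reads numbered 66 (Cont) and 224 (OE) in the BEC line and 292 (Cont) and 1063 (OE) in the LEC line. Mmp7 (matrilysin) and Mmp20 (the enamel protease enamelysin) had 0 reads in every library, and Adamts13, the protease of von Willebrand factor, had 1 to 3.

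**Figure D1:**
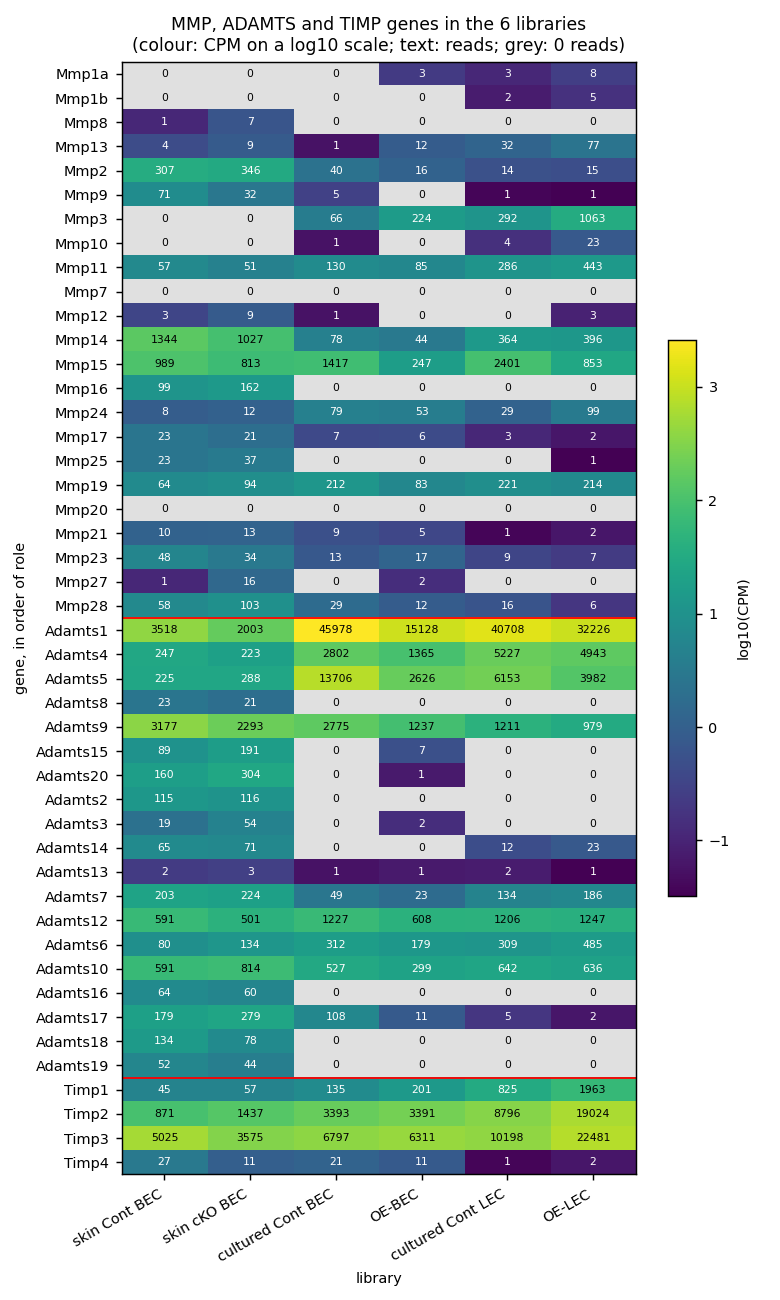
Reads of the 46 members (rows, in order of role) in the 6 libraries (columns). Colour gives CPM on a log10 scale, grey marks 0 reads, and red lines part Mmp, Adamts and Timp genes; Adamts1 runs from 2003 to 45978 reads, and 9 members have reads over the floor in the skin libraries but in no cultured library.

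The skin comparison asked which members differed in BECs of embryos in which Dot1l was to be deleted from endothelium. In the library labelled cKO, 1 member rose (Mmp27) and 1 fell (Timp4) of the 38 with at least 10 reads. The same rule called 4.24% of all genes higher and 1.70% lower, so the counts of members stood near the background. Among members that did not pass, ratios lay below 0 for the 4 proteases with the most reads (Adamts1, Adamts9, Mmp14 and Mmp15) and for Timp3. The median log2 ratio of the 38 members was -0.22 (pseudocount 1), against 0.00 over the 15554 genes tested, and -0.12 without the filter on reads. The interval lay below 0 for 12 members and above 0 for 5, which is 31.6% and 13.2% of those tested, against 25.4% and 23.1% of all genes.

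Mmp27, a little studied member of the cluster, had 1 read in skin Cont and 16 in skin cKO BECs (log2 ratio 3.62, 0.94 to 9.01), and 0 to 2 reads in each cultured library. Timp4, an inhibitor of MMPs, fell from 27 to 11 reads (log2 ratio -1.67, -2.83 to -0.61). Both calls rest on few reads, and requiring a normalized count of 20 left no member higher, while Timp4 remained.

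Adamts1 had 3518 reads in skin Cont and 2003 in skin cKO BECs, a log2 ratio of -1.19 (-1.27 to -1.11), which is 2.28-fold lower and short of the rule. Adamts9, which also cuts versican, had 3177 and 2293 reads (-0.85, -0.93 to -0.77). Of the stretches of 75 bases in its transcripts, 9.71% are found in genes on the other strand that are not in the table. Adamts4, an aggrecanase, had 247 and 223 reads (-0.53, -0.79 to -0.26). These 3 intervals lay below 0, whereas Adamts5, the other main aggrecanase, had 225 and 288 reads and a log2 ratio of -0.02 (-0.28 to 0.24), which turned to 0.03 when counts were scaled by library totals.

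Other ADAMTS members had ratios on either side of 0. Adamts15 and Adamts20, both proteoglycan proteases, had 89 and 191 reads (0.72, 0.35 to 1.10) and 160 and 304 reads (0.55, 0.27 to 0.83). Adamts3, which processes procollagen and, with Ccbe1, the lymphangiogenic factor Vegfc, had 19 and 54 reads (1.13, 0.35 to 1.97). Adamts18 had 134 and 78 reads (-1.16, -1.58 to -0.75). Adamts12, a protease of cartilage oligomeric matrix protein (COMP), had 591 and 501 reads (-0.62, -0.79 to -0.44), and Adamts10, which is tied to fibrillin, had 591 and 814 (0.08, -0.07 to 0.24). Of the 18 ADAMTS genes tested, 12 ratios were lower and 6 higher, with a median of -0.30.

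The membrane-bound Mmp14 and Mmp15 had the highest RPKM of the MMPs in both skin libraries. Mmp14 (MT1-MMP), which cuts collagen at the cell surface and activates Mmp2, had 1344 reads in skin Cont BECs, or 25.4 RPKM, and 1027 in skin cKO BECs (log2 ratio -0.77, -0.88 to -0.65). Mmp15 (MT2-MMP) had 989 and 813 reads (-0.66, -0.80 to -0.53). The gelatinases cut type IV collagen of the basement membrane. Mmp2 had 307 and 346 reads (-0.21, -0.43 to 0.02) and Mmp9 71 and 32 reads (-1.53, -2.18 to -0.91), 2.88-fold lower and the nearest member outside the rule, as Timp4 (3.19-fold) was the nearest inside it.

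Among the inhibitors, Timp3 had 5025 reads in skin Cont and 3575 in skin cKO BECs (log2 ratio -0.87, -0.93 to -0.81), and Timp2, which also helps Mmp14 to activate Mmp2, had 871 and 1437 (0.34, 0.22 to 0.47). Timp1 had 45 and 57 reads (-0.04, -0.63 to 0.56, and 0.02 when scaled by library totals). The inhibitors therefore did not share 1 direction in skin. Timp3 lies within Syn3 on the other strand, whose exons cover 1733 of its 8144 exon bases, and Syn3 had 70 to 108 reads in each of the 6 libraries. Beside these ratios, all 10 blood endothelial markers were lower in the library labelled cKO (median -0.70), as were 7 of 8 fibroblast (median -0.48) and 6 of 6 pericyte markers, while 9 of 10 macrophage markers were higher (median 0.84). None of the macrophage or blood endothelial markers passed the rule. Past it were the keratinocyte markers Krt1 (33 and 254 reads) and Krt10 (51 and 263 reads), both higher. Over all 9 keratinocyte markers, 6 ratios were higher and 3 lower (median 0.58). Of the neutrophil markers, Csf3r (30 and 117 reads) and Camp (2 and 11 reads) passed the rule higher and S100a8 (11 and 4 reads) lower. The part of these cell types in the members' ratios was not tested.

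**Figure D2:**
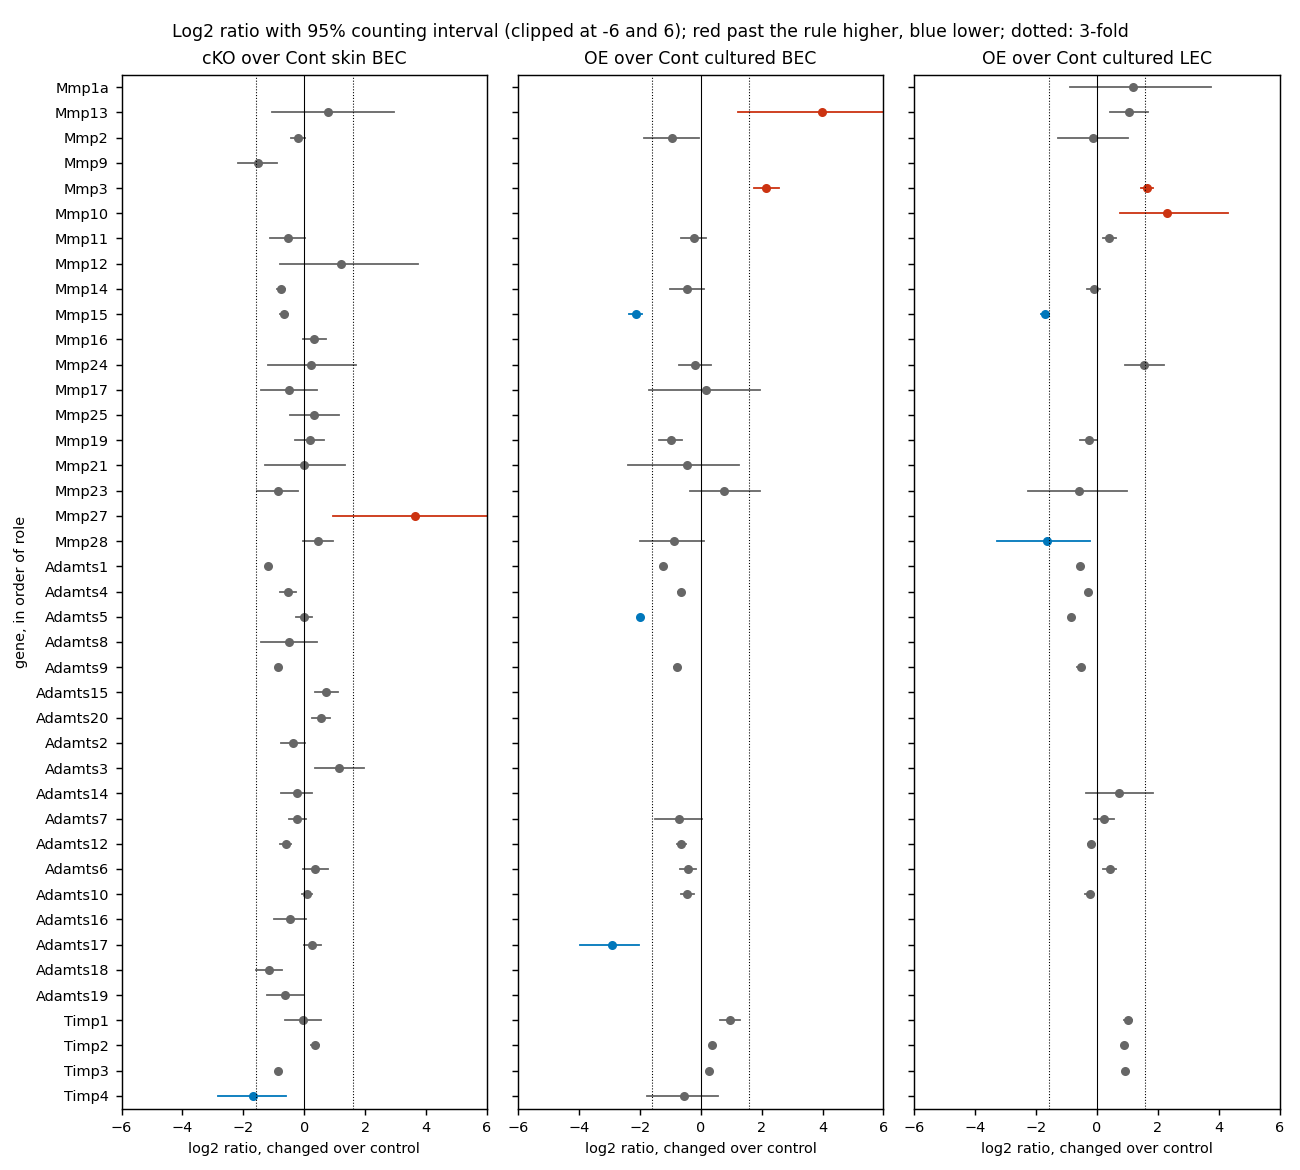
Log2 ratio (x axis) of each member tested (y axis, in order of role) in the 3 comparisons, with 95% counting intervals as bars; red and blue mark members past the rule and dotted lines 3-fold. In OE-BECs all 9 ADAMTS ratios sit below 0, and Timp1, Timp2 and Timp3 sit above 0 in both OE comparisons.

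The comparison of OE-BECs with cultured Cont BECs asked which members differed when Dot1l was activated in BECs. Mmp3 and Mmp13 rose, and Mmp15, Adamts5 and Adamts17 fell, out of 25 members with at least 10 reads. The rule called 3.25% of all genes higher and 3.46% lower. Members had a median log2 ratio of -0.44, against -0.01 over the 13396 genes tested, and 18 of 25 ratios were lower. Intervals were below 0 for 11 members and above 0 for 5, which is 44% and 20% of those tested, against 30% and 27.4% of all genes.

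Mmp3 rose from 66 to 224 reads, or from 3.73 to 16.1 CPM (log2 ratio 2.15, 1.74 to 2.56). Mmp13, collagenase 3, rose from 1 to 12 reads (3.97, 1.21 to 9.39), a call that rests on few reads. No other collagenase had 10 reads in the pair, and Mmp10, stromelysin 2, had 1 read in Cont and 0 in OE-BECs.

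Mmp15 fell from 1417 to 247 reads, or from 80.1 to 17.7 CPM (-2.14, -2.34 to -1.94). Mmp15 had the highest RPKM of the MMPs in cultured Cont BECs (14.8) and 3.28 in OE-BECs, where Mmp3 led with 8.93. The related Mmp14 had 78 and 44 reads (-0.44, -1.01 to 0.11), an interval that includes 0. Mmp19 had 212 and 83 reads (-0.97, -1.35 to -0.60) and shares 789 of its 3533 exon bases with Tmem198b on the other strand.

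The ADAMTS genes had ratios below 0 in OE-BECs for all 9 members tested, and 8 of the 9 intervals lay below 0. Adamts5 fell from 13706 to 2626 reads (-2.00, -2.06 to -1.94), or from 71.8 to 17.5 RPKM. Adamts17 fell from 108 to 11 reads (-2.91, -3.96 to -2.02). Adamts1 had 45978 and 15128 reads (-1.22, -1.25 to -1.19), 2.33-fold lower, the nearest member outside the rule, and Adamts5 was the nearest inside it. Scaling by library totals without Rn45s gave -1.18 for Adamts1.

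Adamts4, Adamts9 and Adamts12 had log2 ratios of -0.65 (2802 and 1365 reads), -0.78 (2775 and 1237 reads) and -0.63 (1227 and 608 reads). Adamts6 and Adamts10 had -0.42 and -0.43. The exception was Adamts7 with 49 and 23 reads, whose interval (-1.49 to 0.03) included 0. Adamts1 and Adamts5 are neighbours on chromosome 16, 53.1 kb apart, and were the members with the highest CPM in cultured Cont BECs.

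The inhibitors had other ratios. Timp1 had 135 and 201 reads (0.96, 0.64 to 1.28), Timp2 3393 and 3391 (0.38, 0.31 to 0.45) and Timp3 6797 and 6311 (0.28, 0.23 to 0.33), none past the rule, and Timp4 had 21 and 11 (-0.55, -1.75 to 0.57). Ratios above 0 from equal or fewer reads follow from the smaller size of the OE-BEC library. All 10 blood endothelial markers were also lower in OE-BECs (median -0.61, 2 of them past the rule), and their summed level was 7884 CPM in Cont and 4719 CPM in OE-BECs. Macrophage markers summed to 68.0 and 35.7 CPM, with Adgre1 and the C1q genes at 0 reads. The part of the endothelial difference in the members' ratios was not tested.

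**Figure D3:**
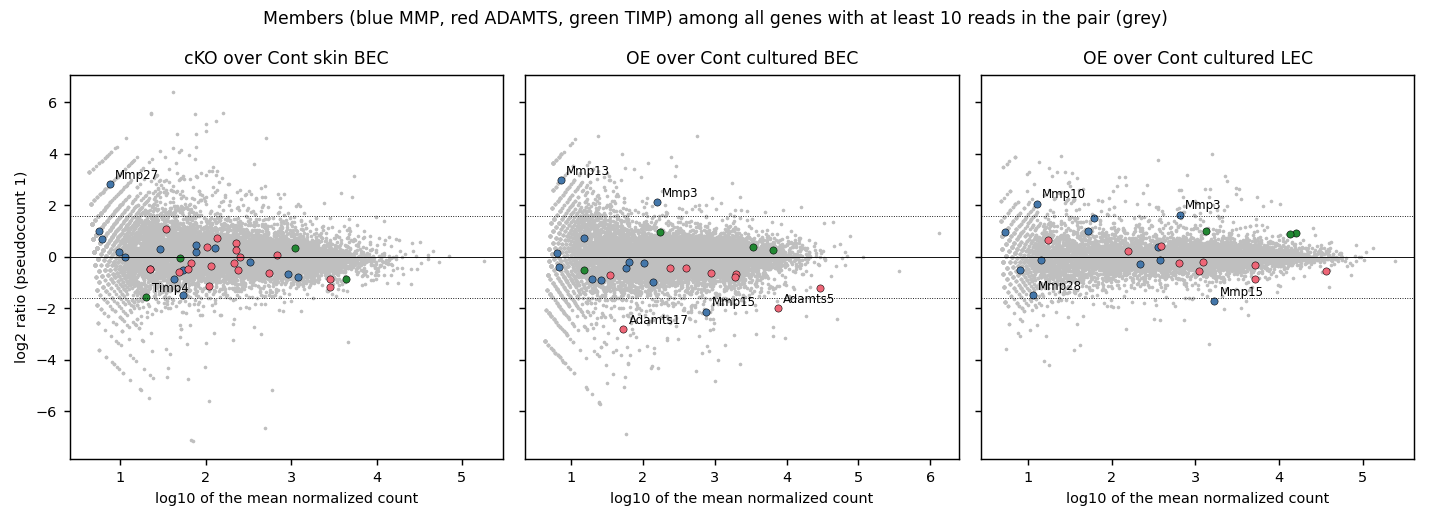
Log2 ratio (y axis, pseudocount 1) against log10 of the mean normalized count (x axis) for all genes tested (grey) and for members (blue MMP, red ADAMTS, green TIMP) in the 3 comparisons. Dotted lines mark 3-fold, and the labelled members are those past the rule, 2 in the skin pair, 5 in the BEC pair and 4 in the LEC pair (the rule adds no pseudocount, so Timp4 and Mmp28 are drawn just inside the lines).

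In OE-LECs against Cont LECs, the stromelysins Mmp3 and Mmp10 rose and Mmp15 and Mmp28 fell, out of 24 members with at least 10 reads. The rule called 1.49% of all genes higher and 0.867% lower. Members were split evenly, with 12 ratios higher and 12 lower and a median of 0.07, against 0.00 over the 13028 genes tested, and 0.24 without the filter. Here intervals lay below 0 for 8 members and above 0 for 9, which is 33.3% and 37.5% of those tested, against 21.4% and 24.2% of all genes.

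Mmp3 rose from 292 to 1063 reads, or from 11.2 to 34.3 CPM (log2 ratio 1.63, 1.45 to 1.83). At 3.10-fold it was the member nearest to the limit inside the rule. Mmp10 rose from 4 to 23 reads (2.29, 0.74 to 4.28). Mmp3 and Mmp10 are close relatives: 3.94% of the stretches of 75 bases in Mmp10 transcripts are also found in another gene, and reads from these cannot be assigned to 1 gene. Mmp13 had 32 and 77 reads (1.04, 0.42 to 1.68), and Mmp11, stromelysin 3, had 286 and 443 (0.40, 0.18 to 0.62).

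Mmp15 fell from 2401 to 853 reads, or from 91.9 to 27.5 CPM (-1.72, -1.84 to -1.61). Mmp28, epilysin, fell from 16 to 6 reads (-1.65, -3.29 to -0.22), and 466 of its 3874 exon bases overlap 1700020L24Rik on the other strand, which had 7 and 0 reads. Mmp24 (MT5-MMP) had 29 and 99 reads (1.54, 0.93 to 2.19), 2.91-fold higher and the nearest member outside the rule. It shares 637 of its 4683 exon bases with BC029722 on the other strand, which had 1293 and 1412 reads. The reads were counted with the -S option of VERSE, and what it sets for strand is not given in the sources used here.

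Among the inhibitors Timp1 had 825 and 1963 reads (1.02, 0.90 to 1.14), Timp2 8796 and 19024 (0.88, 0.85 to 0.92) and Timp3 10198 and 22481 (0.91, 0.88 to 0.94). None passed the rule. All 3 intervals lay above 0, as did those of 24.2% of all genes tested. At a limit of 2-fold, Timp1 was among the 6 members called higher, against 3.37% of all genes.

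The proteoglycan proteases had ratios below 0 in OE-LECs: Adamts1 had 40708 and 32226 reads (-0.57, -0.59 to -0.55), Adamts4 5227 and 4943 (-0.31, -0.37 to -0.26), Adamts5 6153 and 3982 (-0.86, -0.92 to -0.80) and Adamts9 1211 and 979 (-0.54, -0.66 to -0.41). Adamts12 (-0.18, -0.30 to -0.07) and Adamts10 (-0.24, -0.40 to -0.08) also had intervals below 0. Adamts6, by contrast, had 309 and 485 reads (0.42, 0.21 to 0.63), and Adamts17 had 5 and 2 reads, under the limit of 10. Of the 9 ADAMTS genes tested, 6 ratios were lower, all with intervals below 0, and 3 were higher. Of the blood endothelial markers, 9 of 10 were lower in OE-LECs (median -0.27, none past the rule).

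The OE comparisons share no library, and 21 members had at least 10 reads in both. In these, 5 ratios were higher in both (Mmp3, Mmp13, Timp1, Timp2 and Timp3), 11 lower in both, and 5 of opposite sign. The share with the same sign was 76.2%, beside 59.5% of the 12570 genes with enough reads in both. Mmp3 and Mmp15 were the members past the rule in both cell lines. For Mmp3, the paper also reports altered expression by RT-qPCR in both cell types. Set beside the skin comparison, 2 of 24 members were higher in both the cKO and the OE-BEC comparison and 11 lower in both, which is 54.2% with the same sign against 53.2% of all genes. Adamts1, Adamts4, Adamts9 and Mmp15 were among those lower in all 3 comparisons.

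**Figure D4:**
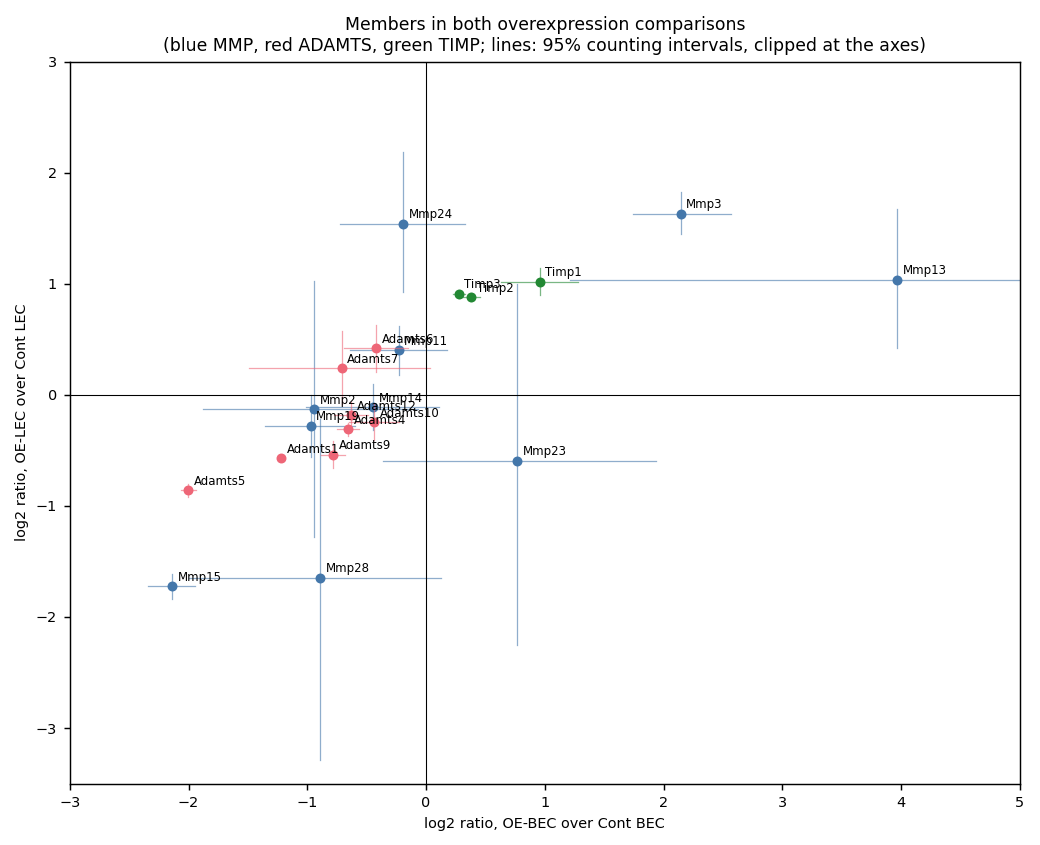
Log2 ratio in OE-BECs over Cont (x axis) and in OE-LECs over Cont (y axis) for the 21 members with at least 10 reads in both pairs, with 95% counting intervals as lines. Mmp3 (2.15 and 1.63) and Mmp15 (-2.14 and -1.72) are past the rule in both, and Adamts5 (-2.00 and -0.86) in OE-BECs.

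Summed over members per length, the 3 classes differed in size between libraries. The ADAMTS sum was 619 RPKM (Cont) and 257 RPKM (OE) in the BEC line, and 370 and 252 RPKM in the LEC line. TIMP genes summed to 105 and 134 RPKM in the BEC pair and to 170 and 318 in the LEC pair. In normalized counts, the log2 ratio of the TIMP sum was 0.32 (0.28 to 0.36) in OE-BECs and 0.90 (0.88 to 0.93) in OE-LECs, and that of the ADAMTS sum -1.27 (-1.29 to -1.25) and -0.55 (-0.56 to -0.53). The MMP sum was 26.5 and 19.2 RPKM in the BEC pair (log2 ratio of counts -0.99, -1.10 to -0.87). In the LEC pair its direction depended on the measure: 33.3 and 36.0 RPKM, but a log2 ratio of counts of -0.42 (-0.49 to -0.35), and 0.17 (0.05 to 0.29) without Mmp3 and Mmp15.

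In skin, all 3 sums were lower in the library labelled cKO: MMPs 70.1 and 51.6 RPKM, ADAMTSs 138 and 85.7 RPKM, and TIMPs 101 and 78.8 RPKM. The ratio of TIMP RPKM to the RPKM of both protease classes was 0.485 in skin Cont and 0.574 in skin cKO BECs. In culture it was 0.163 (Cont) and 0.486 (OE) in the BEC line, and 0.421 (Cont) and 1.10 (OE) in the LEC line. The ratio leans on Adamts1: without it the values were 0.758 and 0.764 in skin, 0.678 and 1.88 in the BEC pair and 1.55 and 3.44 in the LEC pair. The ratio was thus higher in both OE libraries with or without Adamts1, and close to equal in the skin libraries without it. It compares summed RNA levels and was not weighted by which TIMP inhibits which protease.

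**Figure D5:**
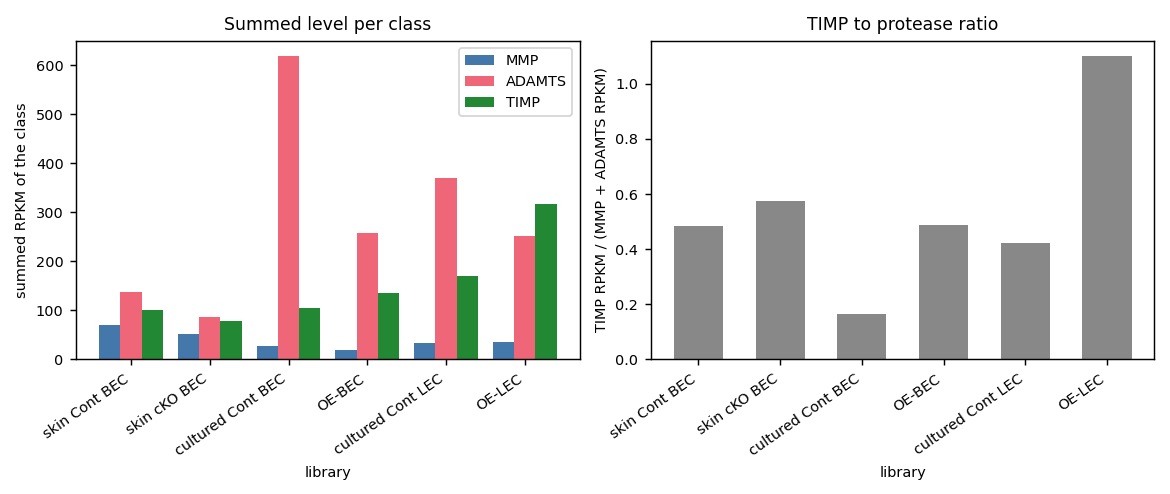
Summed RPKM of the Mmp, Adamts and Timp genes (left, y axis) and the ratio of Timp to Mmp plus Adamts RPKM (right, y axis) in each of the 6 libraries, with 1 library per bar and so no error bar. ADAMTS RPKM is highest in cultured Cont BECs (619), and the ratio runs from 0.163 there to 1.10 in OE-LECs.

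Genes that work with these families were read from a list of 51 activators, other inhibitors, related proteases, ADAMTS-like proteins and substrates. In skin, 48 were tested, and 3 rose and 1 fell, beside the 4.24% and 1.70% of all genes called. Thbs1, thrombospondin 1, an inhibitor of angiogenesis that binds MMPs, rose from 1504 to 9862 reads (log2 ratio 2.34, 2.26 to 2.41). Adam8, a membrane protease of leukocytes, rose from 86 to 417 reads (1.90, 1.56 to 2.25), and A2m, the plasma protease inhibitor alpha-2-macroglobulin, from 7 to 40 (2.14, 0.96 to 3.54). Comp, the cartilage protein cut by Adamts7 and Adamts12, fell from 47 to 15 reads (-2.03, -2.97 to -1.16). Of 18 substrates tested, 15 ratios were lower (83.3%, median -0.46), against 49.7% of all genes, and 4 of the list (Col1a1, Col1a2, Col3a1 and Dcn) are also fibroblast markers. Fn1, fibronectin, went the other way with 5894 and 20102 reads (1.39, 1.35 to 1.43), short of the rule.

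In OE-BECs 36 of these genes were tested, and 2 rose and 3 fell, beside 3.25% and 3.46% of all genes. Adam12, a relative of the ADAMTSs, rose from 303 to 836 reads (1.85, 1.66 to 2.04), and Col1a2, a type I collagen chain, had 0 and 17 reads, at least 5.38-fold higher. Vwf, the substrate of Adamts13 and a marker of endothelium, fell from 3606 to 610 reads (-2.18, -2.31 to -2.06). Pcsk6, a proprotein convertase, fell from 2526 to 623 (-1.64, -1.77 to -1.51), and Adamtsl1 from 129 to 21 (-2.24, -2.98 to -1.56). In OE-LECs 34 were tested, none rose and 2 fell, beside 1.49% and 0.867% of all genes: Vwf from 824 to 260 reads (-1.89, -2.10 to -1.69) and Adamtsl1, whose count went from 19 to 5 (-2.16, -3.93 to -0.69).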

How the data were processed

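RNA-seq was made from 6 libraries with the ScriptSeq v2 kit. Per the methods and labels, the authors trimmed adapters with skewer 0.2.2 (-L 75), aligned reads to mm10 with STAR 2.7.9a and counted reads per gene with VERSE 0.1.5 (-S). The deposited values are raw counts per gene symbol, with totals of 8863349 to 31032461 reads. With 1 library per condition there are no replicates, and 0 columns were left unmapped.

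Size factors came from the median of ratios of DESeq2 1.42.0 (R 4.3.3) on the libraries of each pair. Alternatives were factors over all 6 libraries, TMM of edgeR 4.0.16, library totals with and without Rn45s, no filter, a minimum of 20 and a limit of 2-fold. Intervals are exact Clopper-Pearson 95% intervals (scipy 1.17.1). Medians used log2 of the normalized count plus 1. The steps were tested on simulated counts with counting error only and large changes planted in genes with many reads. Calls near 3-fold or on few reads were not tested by this. Exon lengths and overlaps came from GENCODE M21, which held 95.7% of the symbols and all 46 members.

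Members, roles, pathway and marker lists were chosen with earlier results of these data known. Named members were those that passed the rule and reached 20 normalized counts, the 10 with the highest CPM, Mmp3 and all Timp genes; the others named were chosen after their values were seen, as was the printing of promoters. Of the remaining marker lists, in skin Cont and cKO BECs the summed CPM was 1953 and 2424 (lymphatic), 7.33 and 14.3 (neutrophil), 2350 and 3311 (mast cell), 724 and 563 (pericyte) and 20.4 and 24.0 (cartilage and bone).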

Additional observations from a re-analysis of the deposited data

Results flagged for a closer look

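Adamts6, a protease tied to fibrillin and to heart development, was the member whose intervals lay on opposite sides of 0 in the OE comparisons. It had 312 and 179 reads in cultured Cont BECs and OE-BECs (log2 ratio -0.42, -0.69 to -0.15) and 309 and 485 reads in Cont LECs and OE-LECs (0.42, 0.21 to 0.63). The log2 ratios differed by 0.84. With 1 library per condition the difference was not tested, and neither ratio reached 2-fold. In skin, Adamts6 had 80 and 134 reads (0.37, -0.04 to 0.78).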

How the results depend on the processing

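All 4 other scalings called the same members in each comparison. In skin, the 1 member higher became 2 without the filter (Mmp8, 1 and 7 reads, was added), 0 with a minimum of 20 and 3 at 2-fold, and the 1 lower became 4 at 2-fold. In OE-BECs the 2 higher became 4 without the filter and 1 with a minimum of 20. In OE-LECs the 2 higher became 6 at 2-fold, and the 2 lower became 1 with a minimum of 20. Of 160 log2 ratios of named members under other scalings, 158 stayed within the counting interval and 2 (both Adamts1 in OE-BECs, -1.26 and -1.18) did not. Adamts5 and Timp1 in skin, whose intervals include 0, changed sign with library totals. The median of the members moved most without the filter, from -0.22 to -0.12 in skin and from 0.07 to 0.24 in OE-LECs, and all 21 alternative medians kept their sign. No library could be left out, since each condition has 1. No paired analysis was possible because each group holds 1 library. Depth limits the calls on few reads, as the interval of Mmp27 in skin (0.94 to 9.01) shows.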

Other observations

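Several members had too few reads for the comparisons. Adamts15, a proteoglycan protease, had 0 reads in cultured Cont BECs, Cont LECs and OE-LECs and 7 in OE-BECs. Mmp1a, a mouse counterpart of interstitial collagenase that the annotation lists as a polymorphic pseudogene, had 0 and 3 reads in the BEC pair and 3 and 8 in the LEC pair, and Mmp1b had 2 and 5 reads in the LEC pair. Parts of these transcripts are identical: 12.8% of the stretches of 75 bases in Mmp1b are found in other genes, and reads from these cannot be assigned to 1 gene. Mmp8, the collagenase of neutrophils, had 1 and 7 reads in skin, beside neutrophil markers that did not share a direction (Csf3r had 30 and 117 reads, S100a8 11 and 4, S100a9 9 and 6), and 0 in the cultured libraries. Mmp12, the elastase of macrophages, had 3 and 9 reads in skin (log2 ratio 1.21, -0.80 to 3.73) and 0 to 3 in each cultured library.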
